A study of Mus musculus with 9 samples.

Results

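The 35 genes described here are macrophage and myeloid genes, measured in sorted mouse activated hepatic stellate cells (aHSCs). They were matched by name to the bead array, where all 35 were found by symbol, among 30869 gene symbols, on 59 of its 45281 gene probes. The genes were chosen by earlier results from these same 9 arrays, in which macrophage markers differed between the groups in every comparison. Their differences between groups are therefore given as a description. The counts of calls below stand beside the share of all probes called, and nothing is drawn from the one against the other.

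The study compared 3 populations of aHSCs, with 3 arrays in each. All came from WT1GFP/+ mice of strain C57/Bl6, male per the labels, in which 1 of the alleles of the WT1 gene reports its activity as green fluorescent protein (GFP), so every group carried the knock-in. The WT1-high (GFP high, replicates 1, 8 and 29) and WT1-intermediate (GFP low in the labels, replicates 1, 8 and 30) cells were isolated from livers injured chronically with intraperitoneal carbon tetrachloride. The WT1-negative (GFP negative, replicates 3, 11 and 14) cells came from uninjured livers and were sorted after 7 days of activation on plastic. The cells were enriched by buoyancy in a density gradient and sorted on the GFP channel alone, and no gate against leukocytes is named in the methods. WT1 status and origin in liver or culture cannot be told apart in either comparison with WT1-negative cells, and the in vivo and in vitro arrays also lie in separate tables. The WT1-high and WT1-intermediate cells share their origin and their table.

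Macrophages are phagocytes that engulf dying cells, debris and microbes. The liver holds its own resident macrophages, Kupffer cells, which line the sinusoids beside the stellate cells, and injury draws in monocytes that mature into further macrophages. These cells recognise antibody-coated and damaged material through Fc, scavenger and complement receptors, depend on the growth factor receptor Csf1r, and signal through adaptor proteins such as Tyrobp and Fcer1g. Hepatic stellate cells are mesenchymal cells and are not of the leukocyte lineage.

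Of the 35 genes, 32 had a probe detected on at least 3 of the 9 arrays and were tested among 20573 probes. The chemokine receptor Ccr2, the scavenger receptor Msr1 and the oxidase subunit Cybb were not well above background on any array. Levels are normalised log2 intensities, of the brightest probe of each gene. They serve to compare groups for 1 gene and not genes with each other. Values for 3 arrays follow the order of replicates given above, differences are on the log2 scale with their standard error (SE), and a call is an adjusted p under 0.05 in limma over all probes tested. The arrays detected between 38.1 and 43.7% of their gene probes. Of the stellate cell markers checked, Col1a1, Col3a1, Acta2, Des and Pdgfrb were detected on every array, whereas Gfap was detected on none and Lrat on 1. Among all 18 such markers, 1 was detected on no WT1-high array, 3 on no WT1-intermediate array and 4 on no WT1-negative array.

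Between the in vivo populations, the macrophage and myeloid genes were lower in WT1-high cells. All 32 genes tested had a lower mean in WT1-high than WT1-intermediate cells. Of these, 23 were called lower and none higher, where 2.64% of all probes were called lower and 0.904% higher. The median difference over the 32 genes was -1.48, beside 0.05 over all probes. For 28 genes the highest WT1-high array lay below the lowest WT1-intermediate array, as it did for 8.6% of all probes, with 11.5% separate in the other direction. The direction was also that within each label number shared by both populations: 32 of 32 genes were lower in the WT1-high array numbered 1, with a median of -1.70, and 32 of 32 in that numbered 8, with a median of -1.36. Leaving out WT1-high replicate 8 lowered the calls to 13, and leaving out WT1-intermediate replicate 1 lowered them to 15. With the label number as a fixed replicate block, Coro1a, Fcgr1 and Clec4f were called lower too, and Cd53 and Fcrls were not. A random replicate block kept all 23 calls and added those 3 with Ptprc, Cx3cr1, Marco and Mpeg1. With median scaling in place of quantile normalisation 6 were called. There the median over all probes moved to 0.45, against which the median of these genes lay 1.35 lower, as -0.90. Fewer cells of a type and less RNA per cell cannot be told apart in such sorted bulk samples.

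Against the cultured WT1-negative cells, the genes divided. In WT1-high cells 23 of the 32 were lower and 2 higher by the same test, with 33.1% of all probes lower and 26.5% higher. In WT1-intermediate cells 14 were lower and 9 higher, with 33.6% of all probes lower and 24.4% higher. Median scaling gave 17 lower and 5 higher in the latter comparison. Both in vivo populations share the WT1-negative arrays. The order of the group means was WT1-negative, then WT1-intermediate, then WT1-high for 19 genes. It was WT1-intermediate, WT1-negative, WT1-high for 7 genes and WT1-intermediate, WT1-high, WT1-negative for the other 6. Over all probes tested these orders held 24.0, 4.13 and 14.8%.

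**Figure D1:**
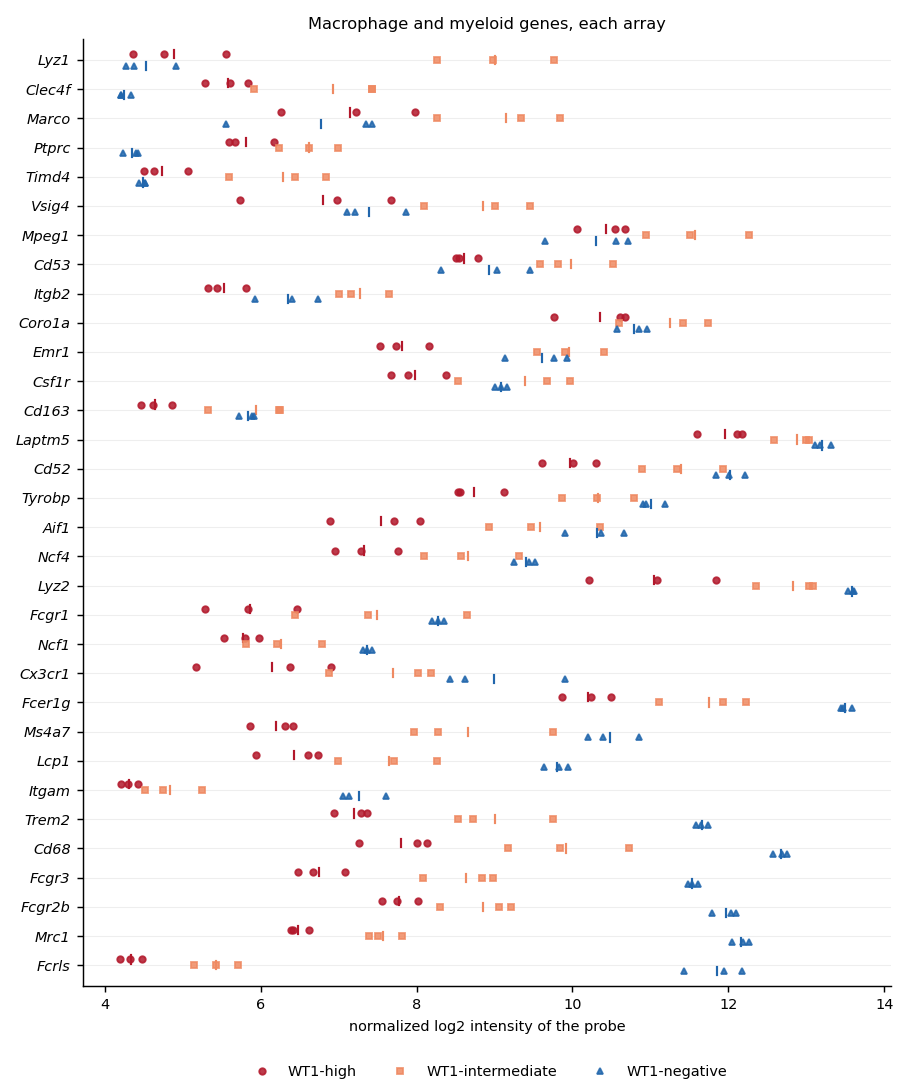
Normalised log2 intensity (x axis) of the brightest probe of the 32 genes tested, 1 point per array, with a tick at each group mean (circles WT1-high, squares WT1-intermediate, triangles WT1-negative). Genes are ordered by the difference between WT1-intermediate and WT1-negative cells. From Lyz1 (9.00 against 4.52) to Fcrls (5.43 against 11.85) this difference turns over, while every WT1-high mean lies below its WT1-intermediate mean.

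**Figure D2:**
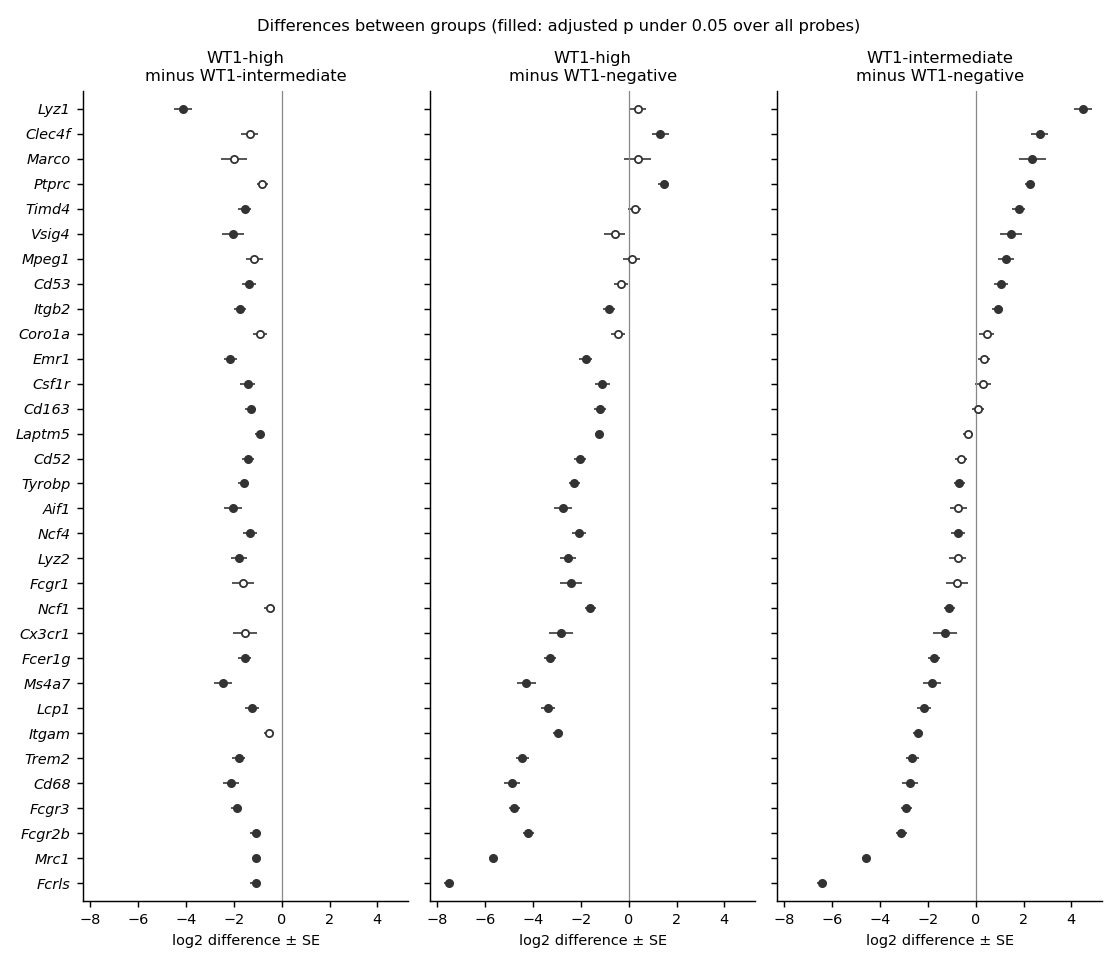
Log2 differences between the group means (x axis, with SE bars) for the same 32 genes in the 3 comparisons. Filled points had an adjusted p under 0.05 over all probes. In the left panel all points lie below 0 (23 filled), and in the right panel 13 lie above and 19 below.

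The 6 pan-leukocyte genes are used by blood-derived cells at large. All 6 had a lower mean in WT1-high cells than in the other in vivo population, and 4 were called lower. The position of culture varied from gene to gene. Laptm5, a lysosomal membrane protein of blood cells, read 12.11, 12.17 and 11.60 in WT1-high, 13.04, 13.00 and 12.59 in WT1-intermediate and 13.17, 13.12 and 13.32 in WT1-negative cells. The WT1-high arrays lay lowest and did not overlap with the others, with a difference of -0.91 ± 0.19 from WT1-intermediate cells. Ptprc, which encodes the leukocyte common antigen CD45, read 5.59, 6.17 and 5.67 in WT1-high, 6.99, 6.62 and 6.23 in WT1-intermediate and 4.40, 4.23 and 4.43 in WT1-negative cells. It was not well above background on any WT1-negative array, so its rise over culture is given as a bound, at least 2.31-fold for WT1-high and at least 4.04-fold for WT1-intermediate cells. A second Ptprc probe was detected on all 3 WT1-negative arrays and passed the test in no comparison. The actin-bundling protein gene Lcp1 ran the other way, at 6.42 ± 0.43 in WT1-high, 7.65 ± 0.64 in WT1-intermediate and 9.80 ± 0.16 (SD, n = 3) in WT1-negative cells. Cd52, a small surface glycoprotein, had means of 9.97, 11.39 and 12.02 on its brightest probe. A second Cd52 probe placed WT1-intermediate cells highest, with means of 8.72, 9.97 and 9.00 and a called difference of 0.97 from culture, where the brightest gave -0.63 and no call. The tetraspanin gene Cd53 was highest in WT1-intermediate cells at 9.98 ± 0.49, beside 8.61 ± 0.15 and 8.93 ± 0.58 (SD, n = 3). Coro1a, a leukocyte actin regulator, was highest there too at 11.25 on its brightest probe but was called in no comparison. On 2 of its 3 other probes WT1-negative cells were highest, at 10.33 and 9.16, and WT1-high cells were called lower than these by 1.17 and 1.24 on the log2 scale.

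Growth factor and chemokine receptors tie macrophages to their survival signal and to sites of injury, and integrins let them adhere. Csf1r, the receptor for the macrophage growth factor, read 7.88, 8.38 and 7.68 in WT1-high, 9.68, 9.97 and 8.53 in WT1-intermediate and 9.09, 9.16 and 9.01 in WT1-negative cells. WT1-high cells were called lower than both other groups, with differences of -1.41 ± 0.32 from WT1-intermediate and -1.11 ± 0.32 from WT1-negative cells. A second Csf1r probe placed WT1-negative cells above WT1-intermediate cells, with a difference of -1.60 for intermediate minus negative, whereas the first gave 0.31. Cx3cr1, the fractalkine receptor, was spread widely between WT1-high arrays at 6.90, 6.38 and 5.17, and read 8.19, 8.02 and 6.88 in WT1-intermediate and 8.63, 9.91 and 8.43 in WT1-negative cells. For it, the comparisons with WT1-negative cells were called and the in vivo one was not, at -1.54 ± 0.50, though it was called with the random replicate block. The study lists Cx3cr1 as differentially expressed between the in vivo populations, higher in WT1-intermediate cells, at the same 2.92-fold. The integrin pair Itgam and Itgb2, which together form the complement receptor CR3, parted in culture. Itgam was detected on no WT1-high and 2 WT1-intermediate arrays, and read 7.05, 7.61 and 7.13 in WT1-negative cells, at least 6.58-fold above WT1-high cells. Itgb2, the chain shared by several leukocyte integrins, was instead highest in WT1-intermediate cells (7.65, 7.16 and 7.01) and lowest in WT1-high cells (5.33, 5.81 and 5.44), with WT1-negative cells between (6.73, 5.93 and 6.40).

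All 7 Fc receptor genes and their signalling partners were lower in WT1-high than WT1-negative cells by the test, and 6 of 7 lower than in WT1-intermediate cells. Fcrls, an Fc receptor-like gene of mouse macrophages and microglia, showed the largest difference among the 32 genes between culture and liver. Its levels were 4.33, 4.20 and 4.48 in WT1-high, 5.43, 5.14 and 5.71 in WT1-intermediate and 11.43, 12.18 and 11.95 in WT1-negative cells. No WT1-high array had it above background, so that WT1-negative cells were at least 158-fold higher, and they were 85.9-fold above WT1-intermediate cells. Fcgr3, an activating low-affinity IgG receptor, read 6.67, 7.08 and 6.48 in WT1-high, 8.98, 8.85 and 8.08 in WT1-intermediate and 11.48, 11.61 and 11.53 in WT1-negative cells. Its 3 groups did not overlap, and each difference was called. Fcgr2b, the inhibitory IgG receptor, kept the same order with means of 7.77, 8.85 and 11.97 on its brightest probe. A dim Fcgr2b probe, with means of 4.41, 4.46 and 5.92, was not called between the in vivo populations, while another probe was. Fcgr1, the high-affinity IgG receptor, was less even among WT1-intermediate arrays at 8.65, 7.38 and 6.44, and only its difference between WT1-high and WT1-negative cells was called, at -2.41 ± 0.45.

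Adaptor chains carry the signals of these receptors into the cell. Fcer1g, the Fc receptor gamma chain, read 10.50, 10.24 and 9.87 in WT1-high, 12.22, 11.93 and 11.11 in WT1-intermediate and 13.59, 13.45 and 13.47 in WT1-negative cells. Tyrobp, which encodes the adaptor DAP12, had means of 8.73, 10.32 and 11.01 in that order of groups, and its partner Trem2, a lipid-sensing receptor of macrophages, had means of 7.20, 9.00 and 11.66. All 3 differences were called for each of these 3 genes. Trem2 was 3.50-fold lower in WT1-high than WT1-intermediate cells and 22.0-fold lower than in WT1-negative cells.

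Scavenger and clearance receptors fell into contrasting sets. Cd68, a lysosomal glycoprotein abundant in macrophages, read 8.14, 8.00 and 7.26 in WT1-high, 10.72, 9.84 and 9.18 in WT1-intermediate and 12.57, 12.75 and 12.69 in WT1-negative cells. Mrc1, the mannose receptor, read 6.41, 6.39 and 6.62, then 7.39, 7.51 and 7.81, then 12.19, 12.05 and 12.26. For both, the groups were separate in every comparison, and WT1-negative cells exceeded WT1-intermediate cells 6.75-fold for Cd68 and 24.2-fold for Mrc1. The haemoglobin scavenger receptor Cd163 did not share that step, with means of 4.64, 5.94 and 5.84.

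In the same role group, Clec4f, Timd4, Marco and Vsig4 were called higher in WT1-intermediate cells than in culture, and of these Clec4f alone in WT1-high cells. They are set together here after their values were seen. Clec4f, a lectin that marks Kupffer cells in mice, read 5.29, 5.84 and 5.61 in WT1-high and 5.92, 7.43 and 7.42 in WT1-intermediate cells, and was detected on no WT1-negative array. Against culture its level was at least 4.99-fold higher for WT1-intermediate and at least 1.97-fold for WT1-high cells. On a second, dimmer Clec4f probe only the difference between WT1-intermediate and WT1-negative cells was called. Timd4, a phosphatidylserine receptor of resident macrophages, read 4.50, 4.64 and 5.06 in WT1-high and 6.44, 5.59 and 6.84 in WT1-intermediate cells. It too was not well above background in culture, at least 3.22-fold below WT1-intermediate cells. Marco, a scavenger receptor for bacteria and particles, read 6.25, 7.22 and 7.97, then 8.27, 9.34 and 9.84, then 7.42, 7.35 and 5.56. Vsig4, a complement receptor of the immunoglobulin family, had means of 6.80, 8.85 and 7.39. Both were called higher in WT1-intermediate than WT1-negative cells, by 2.37 ± 0.56 and 1.46 ± 0.46, and neither was called between WT1-high and WT1-negative cells.

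The lysozymes break down bacterial cell walls, and their 2 mouse genes lie side by side on chromosome 10 (GRCm38.p6), Lyz1 at chr10:117287795-117292868 and Lyz2 at chr10:117277541-117282272. Their probes are shown because the gene pair is near-identical and probes for it can share target sequence. A Lyz1 probe and the Lyz2 probe cover the same 50 bases, match at 43 and differ at 7, which are given in capitals:
Lyz1: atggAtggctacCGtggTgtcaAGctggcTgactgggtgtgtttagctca
Lyz2: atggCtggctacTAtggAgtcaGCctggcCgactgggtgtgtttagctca

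Lyz2, the lysozyme of macrophages, read 11.08, 11.84 and 10.21 in WT1-high, 13.08, 13.04 and 12.35 in WT1-intermediate and 13.53, 13.61 and 13.60 in WT1-negative cells on the probe shown. The Lyz1 probe shown was at background on 2 of 3 WT1-high arrays and read 7.08, 8.63 and 7.65 in WT1-intermediate and 5.87, 5.92 and 6.33 in WT1-negative cells. A brighter Lyz1 probe, which has no run of more than 5 bases in common with the Lyz2 probe shown, read 8.27, 9.76 and 8.98 in WT1-intermediate cells but 4.38, 4.28 and 4.92 in WT1-negative cells, where 1 of 3 arrays detected it. On that probe WT1-high cells read 4.36, 4.76 and 5.56, near background and detected on 2 of 3 arrays. There Lyz1 showed the largest of the 32 differences between the in vivo populations, -4.11 ± 0.38, a 17.3-fold lower level in WT1-high cells. The size of that fold is limited by the background level. The probes for Lyz1 thus placed WT1-negative cells differently against WT1-high cells, 1.59 higher by the probe shown and 0.37 lower by the brighter one. Binding of Lyz2 transcripts by the Lyz1 probes was not tested. A probe that the array names Lyzs, an older name of Lyz2, matches the brighter Lyz1 probe at 43 of 48 bases and read 11.37 ± 0.07 in WT1-negative and 12.51 ± 0.29 (SD, n = 3) in WT1-intermediate cells. A dimmer Lyzs probe read 5.23 ± 0.05 and 6.11 ± 0.53 (SD, n = 3) in these groups. Both Lyzs probes were called higher in WT1-intermediate than WT1-negative cells, by 1.14 and 0.88. On the Lyz2 probe shown this difference was -0.76 ± 0.34 and was not called. For Lyz2 the order of these groups therefore also depended on the probe, though only the higher level in WT1-intermediate cells was called. Mpeg1, which encodes the pore-forming protein perforin-2, was highest in WT1-intermediate cells at 12.27, 11.51 and 10.94, beside 10.68, 10.55 and 10.06 in WT1-high and 10.71, 9.64 and 10.55 in WT1-negative cells. A much dimmer Mpeg1 probe gave the opposite call, with WT1-intermediate cells 1.60 below WT1-negative cells.

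The phagocyte oxidase makes superoxide, and its cytosolic subunits were both lowest in WT1-high cells. Ncf4 had means of 7.33, 8.66 and 9.40 in WT1-high, WT1-intermediate and WT1-negative cells, and all 3 differences were called. Ncf1 had means of 5.77, 6.27 and 7.37, and its in vivo difference of -0.50 ± 0.22 was not called. The adhesion receptor gene Emr1, a marker of mature mouse macrophages, read 7.53, 8.16 and 7.74 in WT1-high, 10.41, 9.54 and 9.90 in WT1-intermediate and 9.93, 9.13 and 9.76 in WT1-negative cells. The latter groups overlapped, while WT1-high cells were 4.42-fold below WT1-intermediate cells. Another Emr1 probe was near background in both in vivo populations and read 7.70, 8.26 and 8.55 in WT1-negative cells. Aif1, the calcium-binding protein Iba1 of macrophages, had means of 7.55, 9.58 and 10.31 on its brightest probe, and a further probe for it was detected on no WT1-negative array but read 7.13, 6.30 and 6.39 in WT1-intermediate cells. Ms4a7, a membrane protein of mature macrophages, read 6.31, 6.42 and 5.86, then 9.76, 7.97 and 8.27, then 10.20, 10.39 and 10.86. On this probe it was 5.53-fold lower in WT1-high than WT1-intermediate cells. A second Ms4a7 probe, with means of 4.85, 6.09 and 6.05, was not called between the in vivo populations. Between WT1-intermediate and WT1-negative cells that probe gave 0.04 and no call, where the brightest gave a called -1.82.

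Second probes differed from the brightest 1 mainly in the comparisons with culture. Of 16 further probes tested, for 11 genes, all 16 had the sign of the brightest probe between WT1-high and WT1-intermediate cells. Against WT1-negative cells 12 of 16 kept it for WT1-high and 7 of 16 for WT1-intermediate cells. The single opposite call was that of Mpeg1.

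Within the WT1-intermediate group the arrays were spread unevenly for these genes. Replicate 1 had the highest level of the 3 for 22 of 32 genes, where it was highest for 35.1% of all probes, and replicate 30 the lowest for 20 of 32, where it was lowest for 36.3%. Among WT1-high arrays, replicate 29 was lowest for 17 of 32 genes and for 40.3% of all probes. Marco, Vsig4, Clec4f and Cd163 ran against this spread. All 4 were lowest in replicate 1 of both in vivo groups. Lyz1 shared this on its brightest probe, whereas Timd4 did so in the WT1-high group alone. Marco, Vsig4, Clec4f and Cd163, as the 4 genes set against them in the plot by label number, were picked after their values were seen. Over probes, the arrays numbered 1 in both groups deviated together from their group means (correlation 0.352), as did those numbered 8 (0.338).

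**Figure D3:**
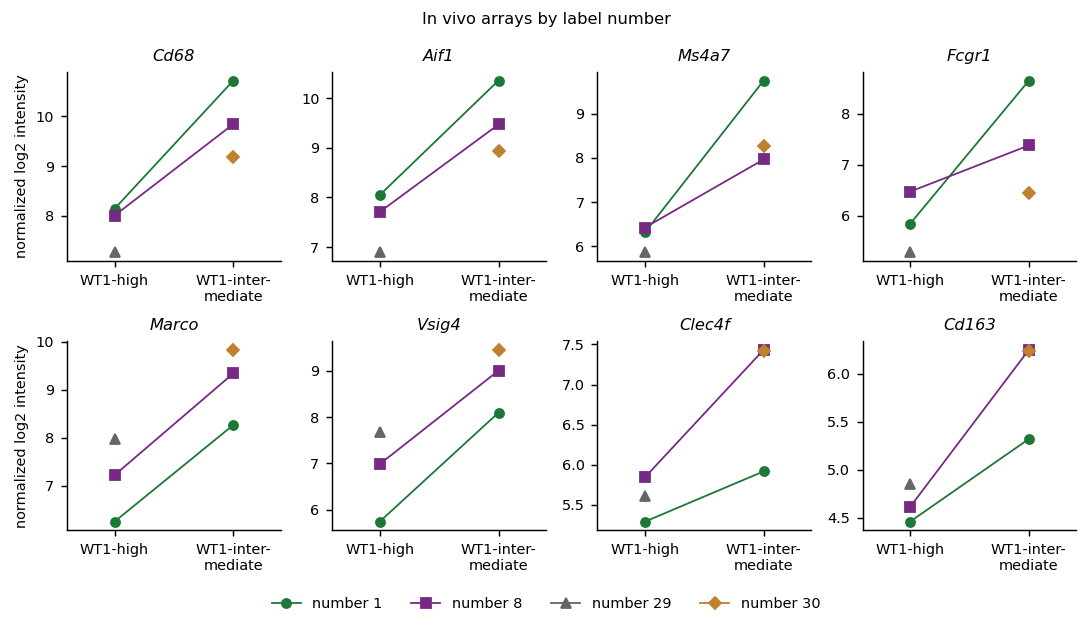
Normalised log2 intensity (y axis, separate for each gene) of 8 genes on the 6 in vivo arrays, with WT1-high on the left and WT1-intermediate on the right of each panel. Lines join the arrays of numbers 1 and 8, which both groups carry. In the upper row number 1 is the highest WT1-intermediate array (Cd68 10.72), and in the lower row the lowest (Marco 8.27), while both joined lines rise from WT1-high to WT1-intermediate in all 8 panels.

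Promoter sequence was looked at because these genes moved together between the in vivo populations. RefSeq promoter entries (GRCm38.p6) were matched for 28 of the 35 genes, and the 250 bases before the start were searched on both strands. The purine-rich core GAGGAA, part of the site of the myeloid transcription factor PU.1, occurred in 13 of the 28 genes (46.4%) and in 25.9% of all 27025 genes with an entry. The longer form GAGGAAGT, which contains that core, occurred in 0 of 28 and in 2.79% of all genes. The AP-1 motif TGACTCA occurred in Cd68 alone, against 5.16% of all genes, and the C/EBP motif TTGCGCAA in none, against 0.185%. A match of letters is not a binding site, and a window without one says nothing of the factor. Upstream sequences are shown for Mrc1 and Cd68, highest in culture, and for Vsig4, highest in WT1-intermediate cells, with GAGGAA or its reverse complement TTCCTC in capitals. They are Mrc1 at chr2:14229164-14229413 (+ strand), Cd68 at chr11:69666171-69666420 (- strand) and Vsig4 at chrX:96293439-96293688 (- strand), each read towards its gene.
Mrc1: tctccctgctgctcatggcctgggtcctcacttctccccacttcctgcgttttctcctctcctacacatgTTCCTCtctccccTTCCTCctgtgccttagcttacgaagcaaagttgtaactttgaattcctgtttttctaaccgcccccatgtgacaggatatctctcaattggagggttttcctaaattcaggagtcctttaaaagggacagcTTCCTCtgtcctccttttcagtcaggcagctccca
Cd68: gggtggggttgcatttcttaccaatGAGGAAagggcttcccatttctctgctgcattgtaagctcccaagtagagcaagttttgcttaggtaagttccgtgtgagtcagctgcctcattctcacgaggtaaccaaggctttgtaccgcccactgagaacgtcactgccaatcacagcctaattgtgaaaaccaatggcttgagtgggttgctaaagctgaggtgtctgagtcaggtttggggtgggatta
Vsig4: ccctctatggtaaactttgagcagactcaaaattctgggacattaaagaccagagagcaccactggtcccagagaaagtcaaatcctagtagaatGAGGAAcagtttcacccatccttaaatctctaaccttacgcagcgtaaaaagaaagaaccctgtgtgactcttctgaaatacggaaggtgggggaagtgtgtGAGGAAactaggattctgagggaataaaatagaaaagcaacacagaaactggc

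Mrc1 held 3 matches, Vsig4 2 and Cd68 1, and no sequence without a match is shown. None was found for Fcer1g and Fcgr2b, highest in culture, or for Clec4f and Timd4, highest in WT1-intermediate cells. The core was thus both present and absent among genes highest in either group.

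Other myeloid genes, 72 in 5 lists, were counted beside the 35. Of these, 65 were tested, and 28 were called lower in WT1-high than WT1-intermediate cells and none higher, with a median of -0.91. Over all probes, 2.64% were called lower there and 0.904% higher. Against WT1-negative cells, 44 were called lower and 6 higher in WT1-high cells, where 33.1% of all probes were lower and 26.5% higher. In WT1-intermediate cells 32 were called lower and 14 higher, where 33.6% of all probes were lower and 24.4% higher. Median scaling gave 36 lower and 6 higher in the latter comparison, and 8 calls between the in vivo populations. The lists were drawn up with results of these arrays known and are no independent evidence of the direction.

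The complement C1q and opsonin-linked list had the lowest median of the 5 between the in vivo populations, -1.96. All 8 genes tested had a lower mean in WT1-high cells, and 5 were called lower. C1qa, a chain of the complement initiator made by macrophages, read 6.14, 6.54 and 6.35 in WT1-high, 9.22, 9.17 and 9.14 in WT1-intermediate and 11.63, 12.00 and 11.70 in WT1-negative cells. C1qc, another chain of the same molecule, had means of 7.75, 10.37 and 13.00. In each in vivo population 7 of the 8 genes were called lower than in culture. C1qa and C1qc had the same order of groups as Cd68, Mrc1 and Fcgr3.

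In the other lists too, most genes had a lower mean in WT1-high than WT1-intermediate cells, and none was called higher. Lower means held for 10 of 12 transcription factors and 13 of 13 signalling and cytoskeleton genes. They also held for 14 of 14 phagosome and lysosome genes and 17 of 18 surface receptors. Among the transcription factors 2 of 12 were called lower, namely Nr1h3, the oxysterol receptor LXR alpha (6.90 against 8.68), and Spic, a factor of splenic and iron-handling macrophages (5.47 against 7.00). Both were higher in WT1-intermediate than WT1-negative cells (6.07 and 4.94). Of the signalling and cytoskeleton genes 6 of 13 were called lower in WT1-high cells, among them Nckap1l, a regulator of leukocyte actin, with means of 7.31, 8.98 and 10.57. Of phagosome and lysosome genes 6 of 14 were called lower, including Gpnmb (9.12, 11.63 and 13.10), a glycoprotein of lipid-laden macrophages, and Ctss (8.50, 10.24 and 7.22), the protease cathepsin S of antigen-presenting cells. Of surface receptors 9 of 18 were called lower, including Cd84 (6.18, 8.38 and 10.97), a leukocyte adhesion receptor, and Clec7a (8.92, 10.44 and 7.83), the beta-glucan receptor dectin-1. Gpnmb and Cd84 were thus highest in culture, and Ctss and Clec7a in WT1-intermediate cells, as among the 35 genes.

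**Figure D4:**
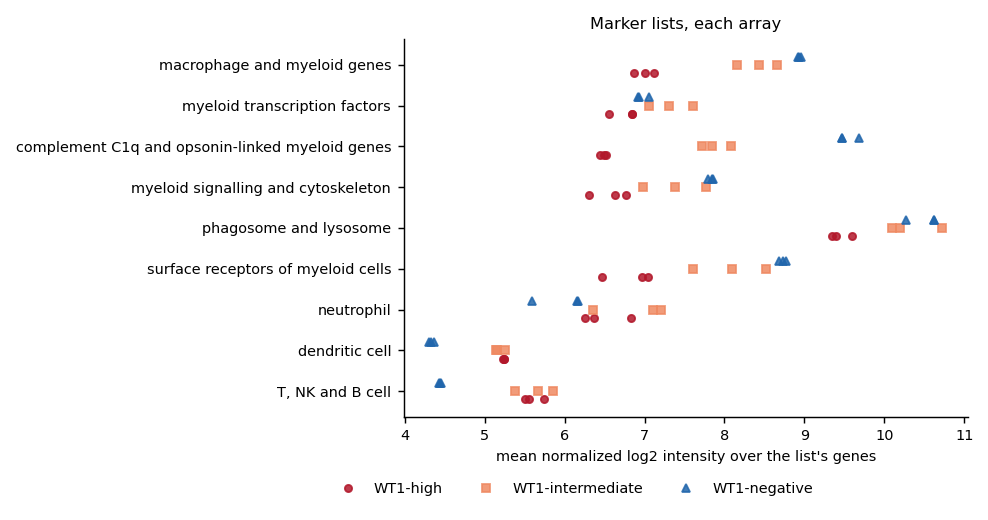
Mean normalised log2 intensity over the genes of each list (x axis), 1 point per array, for the 35 genes, the 5 further myeloid lists and 3 lists of other leukocytes. For the 35 genes the WT1-high arrays lie between 6.86 and 7.12, the WT1-intermediate arrays between 8.16 and 8.66 and the WT1-negative arrays between 8.91 and 8.95, whereas for T, NK and B cells the WT1-negative arrays lie lowest.

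Markers of other cells were read beside these results. For neutrophil, dendritic, and T, NK and B cell genes no difference between the in vivo populations was called, over 8, 4 and 9 genes tested. Over all probes, 2.64% were called lower in WT1-high cells and 0.904% higher, so no call among so few genes is close to that share. The medians of the 3 lists were -0.46, -0.0047 and -0.11. Their mean levels overlapped between those populations, at 6.25 to 6.83 against 6.36 to 7.20 for neutrophil genes and 5.51 to 5.74 against 5.38 to 5.85 for T, NK and B cell genes. The mean level of all 3 lists lay lower in culture, where 9 of 13 T, NK and B cell genes were detected on no array. Nkg7, a cytotoxic granule gene, read 7.04, 7.52 and 7.97 in WT1-high and 6.96, 7.94 and 8.28 in WT1-intermediate cells with at least 7.49-fold and at least 8.70-fold less in culture. Chi3l3, a chitinase-like protein of neutrophils and macrophages, had means of 9.35, 10.32 and 4.88. Single neutrophil genes went the other way. Mmp9, a gelatinase that macrophages also make, had means of 6.30, 6.73 and 9.80 and was lower in both in vivo populations than in culture. Mpo, the granule enzyme myeloperoxidase, read at background on every WT1-high array and had a mean of 6.00 in WT1-negative cells, at least 2.74-fold above WT1-high cells. Siglech, of plasmacytoid dendritic cells, was detected on every in vivo array, with means of 8.38 and 8.91, and on no WT1-negative array. Lymphoid genes were thus lowest in culture, where 19 of the 32 macrophage and myeloid genes tested had their highest mean.

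Endothelial genes moved partly with the 35, with 3 of 12 called lower in WT1-high than WT1-intermediate cells, none called higher, and a median of -0.66. Over all probes, 2.64% were called lower and 0.904% higher there, which also stands beside the mesothelial and stellate counts below. With median scaling none of the genes of other cell types was called lower in WT1-high cells and 12 were called higher, so these 3 calls were lost. The mesothelial list had 1 of 9 genes called higher in WT1-high cells, Dmkn (13.04 against 12.12). All 9 were called higher in both in vivo populations than in culture, where 26.5% (WT1-high) and 24.4% (WT1-intermediate) of all probes were called higher. Of 16 stellate cell genes 2 were called higher and 2 called lower in WT1-high cells. The lower ones were Pdgfrb, a growth factor receptor of stellate cells (5.02 against 6.30), and Hgf, the hepatocyte growth factor (4.55 against 5.71), and their calls were lost with median scaling as well. The higher ones were the intermediate filament gene Des (8.12 against 6.73) and Acta2. Of these Acta2, the smooth muscle actin of activated stellate cells, read 11.50, 11.05 and 11.14 in WT1-high, 10.23, 10.52 and 10.64 in WT1-intermediate and 13.04, 12.87 and 13.12 in WT1-negative cells. No gene of other cell types was called higher with only the 2 groups in the fit, or without WT1-high replicate 8 or 29. The calls of Des, Acta2 and Dmkn were thus lost there. The study lists Acta2 as not differentially expressed between the in vivo populations. The part of endothelial, mesothelial or stellate cell content in the differences of the 35 genes was not tested.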

How the data were processed

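Total RNA of sorted cells was hybridised to Illumina MouseWG-6 v2.0 bead arrays, 1 per sample. The authors deposited an intensity and a detection p-value per probe as exported from BeadStudio, neither background corrected nor normalised. Intensities were read from the joined table, which names every sample, and equalled those of the separate tables on the 8 arrays compared. The number 29 is carried by 2 columns of each in vivo table. The one of the WT1-intermediate group, used for detection p-values and control probes, was taken as the array labelled 30, and its detection p-values never rose with that array's intensity. The submitters' processing notes name limma.

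Background correction, normalisation and log2 transformation followed the study's methods, using limma 3.58.1 (R 4.3.3). The probe filter was added here, since those methods name none. The neqc function corrected background from 936 negative control probes, quantile normalised all 9 arrays and took log2, with an offset of 16. A probe was kept if its detection p was below 0.05 in 3 or more arrays, which left 20573 of 45281. One linear model held the 3 groups over 9 arrays, with 6 residual degrees of freedom and 5.19 from the prior. Contrasts of groups used the two-sided moderated test of limma, with Benjamini-Hochberg adjustment over all probes of a comparison. No normalised array equalled another (smallest root mean square difference within a group 0.264). A gene was given by its probe with the highest mean, and some other probes are given where they differed. Where no array of the dimmer group detected a probe, the fold is a lower bound against the lowest level of a detected probe, or the probe's own where higher, and is written "at least". Precision is limited by the number of arrays. The study counts animals (in vivo) or separate isolations (in vitro) as its replicates.

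The 35 genes and all lists were chosen with earlier results of these data known. All 35 were named, and of each further list up to 2 genes with the largest called rise and 2 with the largest called fall per comparison. Of the further genes listed, 2 of 72 myeloid genes and 4 of 81 of other cell types were not found by name. The study gives 3 animals for the 6 in vivo arrays, and numbers 1 and 8 recur in both groups. Deviations from group means correlated at 0.352 and 0.338 for those numbers, and at 0.468 for 29 with 30. The steps were tested on simulated arrays. The alternatives tried were other background corrections, offsets, normalisations, filters, fits and blocks, any probe of a gene, and leaving out each array.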

Additional observations from a re-analysis of the deposited data

How the results depend on the processing

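For the in vivo comparison, the 23 of the 35 genes called became 13 without background correction, 6 with median scaling, 7 without a probe filter and 14 with only the 2 groups in the fit, and 13 to 26 when each array was left out in turn. Every call was towards a lower level in WT1-high cells under all of these. The 28 other myeloid genes called became 8 with median scaling and 15 without a filter, and 19 to 39 with an array left out, and their calls against WT1-negative cells ranged from 49 to 54 and from 41 to 50. With the label number as a fixed replicate block, 24 of the 35 genes were called, with Cd53 and Fcrls lost and Coro1a, Fcgr1 and Clec4f gained. A random replicate block gave 30 (consensus correlation 0.378), and a fixed block that also joined 29 with 30, chosen after seeing the data, gave 30. Of the 23 genes, 2 kept their call under every setting run, Emr1 and Lyz1. In the comparisons with WT1-negative cells the count of the 35 genes stayed within 1.5 times of 25 and 23 under every setting, 24 to 25 and 20 to 26 with an array left out. No called difference of the 32 genes changed sign on its brightest probe in these settings. With any probe counted, 11 genes were called higher and 17 lower among 27 in WT1-intermediate against WT1-negative cells, Mpeg1 in both directions.

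For genes of other cell types, all alternatives were chosen after seeing the data. The 8 called between the in vivo populations, 3 higher and 5 lower in WT1-high cells, became 12 higher and 0 lower with median scaling, 3 without a filter, 2 with only the 2 groups, 17 with the random replicate block, 15 with 29 and 30 joined in a fixed replicate block, and 2 to 6 with an array left out. With an array left out, the calls against WT1-negative cells came to 44 to 50 and 42 to 49. The calls against WT1-negative cells (35 higher and 14 lower for WT1-high, 34 and 12 for WT1-intermediate) became 26 and 25 in all when probes had to be detected on all 9 arrays, which left 31 genes to test. The causes of the other changes were not tested. Signal near background limits Ccr2, Msr1 and Cybb, for which no difference is given.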
